A study of Rattus norvegicus with 70 samples.

Results

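The comparison described here is the low dose of diethylnitrosamine (DEN) against its vehicle, measured in rat liver DNA at 2 times, with 5 libraries in each group at each time. It takes 20 of the 70 libraries of the series, chosen by the group and the time in the sample labels. The DEN group (DEN3_PB) received DEN at 3 mg/kg and the vehicle group (MC_PB) 0.5% methylcellulose. Rats of the strain Crj:CD(SD)IGS were dosed for 1 or 2 weeks, where the labels tie the 1 week only to a higher dose of 30 mg/kg, and were then left without treatment for 2 weeks. Phenobarbital at 500 ppm in the drinking water followed in both groups, and every animal had a partial hepatectomy after 1 week of it and was killed after 6 weeks of it. Liver DNA from the hepatectomy (first time) and from terminal euthanasia (second time) was sequenced after its methylated fragments had been captured on a protein that binds methylated CG. The labels give 5 rat livers per group and do not say whether libraries with one replicate number at the 2 times are from one animal.

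DEN is activated by liver cytochrome P450 enzymes to a DNA-alkylating species and starts tumours, and phenobarbital promotes the outgrowth of initiated cells through the nuclear receptor CAR. After hepatectomy the remaining liver regrows by division of its cells, so the second sample is regrown tissue under continued promotion. Enrichment by a methyl-binding protein pulls down fragments rich in methylated CG, and more reads over a region therefore go with more methylated CG in it. The signal is relative to the library, is not a methylation percentage, and does not report expression, so the labelled tissue could not be checked against expressed markers. In bulk liver, a smaller share of a cell type and less methylated DNA per cell cannot be told apart.

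The values cover 17174 regions of 5625 bp, each beginning about 4500 bp before a transcript start and running past it, so a region holds the promoter and the first part of the gene. Coordinates are those of the deposited tables, whose genome build the sources used here do not state. RefSeq promoters on GRCr8, from 250 bases before to 50 after the start, are printed for the 4 genes whose regions are described first. They are read along the gene strand with every CG, the site that can be methylated, in capitals. Nusap1 (chr3:127057045-127057344, plus strand) and Fam111a (chr1:219065389-219065688, plus strand) have 15 CG each, LOC500118, named Fam221a in RefSeq (chr4:79667993-79668292, plus strand), has 24, and Rbm39 (chr3:165156186-165156485, minus strand) has 23.
Nusap1: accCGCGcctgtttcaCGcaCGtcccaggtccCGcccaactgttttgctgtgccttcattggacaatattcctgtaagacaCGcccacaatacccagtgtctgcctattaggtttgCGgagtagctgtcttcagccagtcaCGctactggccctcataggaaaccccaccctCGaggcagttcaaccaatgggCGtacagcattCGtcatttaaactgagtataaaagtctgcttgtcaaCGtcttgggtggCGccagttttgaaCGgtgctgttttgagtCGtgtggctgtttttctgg
Fam111a: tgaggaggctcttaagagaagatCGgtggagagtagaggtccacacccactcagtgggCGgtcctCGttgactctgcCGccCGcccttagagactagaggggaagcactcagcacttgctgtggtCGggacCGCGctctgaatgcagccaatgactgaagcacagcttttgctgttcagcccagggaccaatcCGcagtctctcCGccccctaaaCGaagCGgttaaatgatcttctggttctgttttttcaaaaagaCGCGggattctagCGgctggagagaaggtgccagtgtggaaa
LOC500118: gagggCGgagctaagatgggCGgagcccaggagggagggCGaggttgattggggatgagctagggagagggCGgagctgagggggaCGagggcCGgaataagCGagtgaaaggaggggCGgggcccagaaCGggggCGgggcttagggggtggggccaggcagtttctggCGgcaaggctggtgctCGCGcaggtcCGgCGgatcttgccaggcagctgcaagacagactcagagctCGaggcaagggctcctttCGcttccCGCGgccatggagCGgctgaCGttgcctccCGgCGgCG
Rbm39: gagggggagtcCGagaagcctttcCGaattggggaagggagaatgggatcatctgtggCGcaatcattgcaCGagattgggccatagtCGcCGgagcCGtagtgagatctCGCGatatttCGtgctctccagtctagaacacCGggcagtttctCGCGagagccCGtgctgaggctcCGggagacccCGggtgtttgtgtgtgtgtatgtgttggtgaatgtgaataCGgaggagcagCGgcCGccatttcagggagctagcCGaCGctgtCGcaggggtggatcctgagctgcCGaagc

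The motif searched in these windows was CG, which reads the same on both strands. It is present at least once in 94.8% of the 27457 RefSeq promoters of 300 bases, whose median is 7, and the 11825 promoters of genes tested here have a median of 17. These windows are much shorter than the regions and were not aligned with them, and the reads were not placed within a region.

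The regions held 0.933 to 1.66 M reads per library in these 20 libraries, which was 2.14% to 3.54% of the total by which the authors scaled them, with a median of 42 to 59 reads per region. Replicate 5 of the vehicle at terminal euthanasia stood apart. It had no read in 0.740% of regions against 2.53% to 5.33% in the other 19 libraries, and its signal at the 10th percentile of regions was 14.9 where the others had 2.08 to 6.08. A scaling total identical to that of another library of the series was carried by 6 of the 20 libraries, which were replicates 1 and 2 of the vehicle at partial hepatectomy, replicates 1, 2 and 5 of DEN at that time and replicate 5 of DEN at terminal euthanasia. The series held 10 such pairs. Each joined a library numbered 61 to 70 with one numbered 1 to 10, in the same order. Among the 20 libraries, numbers 61 and 66 are replicate 5 of DEN at partial hepatectomy and at terminal euthanasia. Library 66 had the largest share of reads in regions, 3.54%, and the highest median signal, 64.1, and both values rest on its total. Whether those totals are right was not tested. The replicates 1 to 4 lay in the same blocks of library numbers in both groups, and replicate 5 did not. For 4 library measures at each time (reads in regions, their share, regions without a read, median signal), exact permutation p between DEN and vehicle lay from 0.11 to 0.96 (two-sided, smallest p possible 0.00794).

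No region passed the test at either time. limma with Benjamini-Hochberg adjustment called 0 of 15809 regions (0.0%) at partial hepatectomy, where the smallest adjusted p was 0.9997, and 0 of 16008 (0.0%) at terminal euthanasia, where it was 0.58. At an unadjusted p under 0.05 there were 501 regions (3.17%) at partial hepatectomy, 331 higher after DEN (2.09%) and 170 lower (1.08%). At terminal euthanasia there were 1363 (8.51%), 895 higher (5.59%) and 468 lower (2.92%). The mean of both times, with 1 value per replicate number, also gave 0 calls of 15740 (0.0%; smallest adjusted p 0.94), and 659 regions had an unadjusted p under 0.05 (4.19%), 412 higher (2.62%) and 247 lower (1.57%). The median standard error of a log2 difference was 0.23 at the first time and 0.24 at the second.

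The direction of these regions was not stable at either time, and their number was not at the second. When 1 replicate number of 1 group was left out at a time, between 549 and 2014 regions had p under 0.05 at terminal euthanasia. Without replicate 5 of the vehicle, 549 regions had an unadjusted p under 0.05 at terminal euthanasia (318 higher, 231 lower), and with replicates 1 to 4 alone 502 did (159 higher, 343 lower). Quantile normalization, which gives all libraries one distribution of values, left 1070 (559 higher, 511 lower), and trimmed-mean scaling of the reads 1461 (727 higher, 734 lower). Since quantile normalization makes the distributions equal, a near-even split can follow from its construction. Without DEN replicate 5 the split at terminal euthanasia was 371 higher and 629 lower, and with blocks of library numbers as a term it was 499 and 631. At partial hepatectomy it was 229 and 255 with replicates 1 to 4, 242 and 260 without DEN replicate 5, 284 and 300 with library number blocks, and 274 and 257 after quantile normalization. For the mean of the times it was 166 and 307 with replicates 1 to 4, 244 and 420 without DEN replicate 5, 285 and 456 with library number blocks, and 353 and 423 after trimmed-mean scaling. More regions were thus higher than lower after DEN at each time and for their mean in the deposited signal, and fewer were higher than lower without DEN replicate 5 or with library number blocks. The median region lay 0.09 higher on the log2 scale after DEN at terminal euthanasia in the deposited signal, and 0.03 higher without DEN replicate 5.

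The difference at the second time ran with the signal of a region. With the regions ordered by mean signal and cut into 4 classes of equal size, the lowest class had a median log2 difference of -0.33, the second -0.01, the third 0.14 and the highest 0.27. At partial hepatectomy the medians were 0.07, 0.04, 0.02 and -0.02 in the same order. Without replicate 5 of the vehicle the 4 medians at terminal euthanasia were -0.11, 0.02, 0.08 and 0.12, and after quantile normalization they ran from -0.06 to 0.02. A region of low signal could thus lie lower after DEN, and one of high signal higher, together with most regions of its level.

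**Figure D1:**
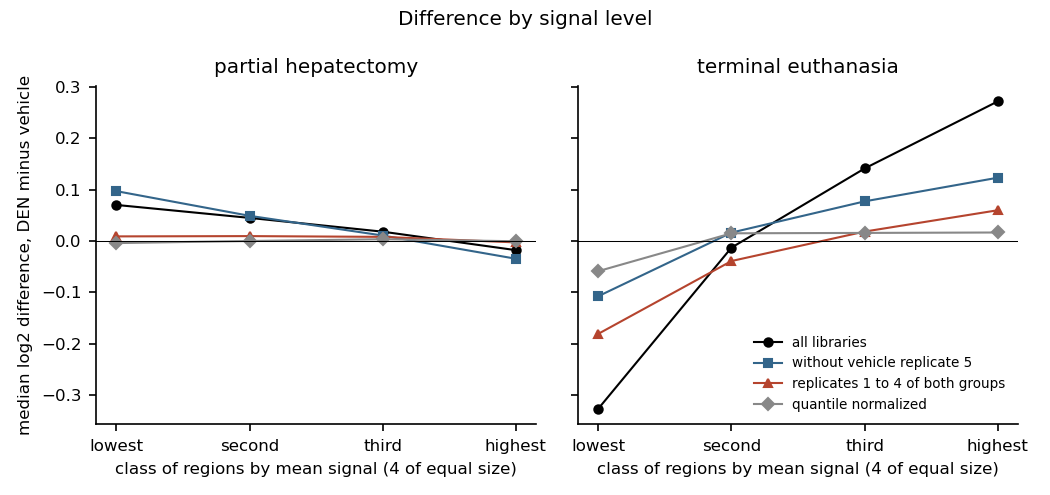
Median log2 difference in signal (DEN minus vehicle) in 4 classes of equal size of the 15740 regions, ordered by mean signal, at each time and under 4 settings. At terminal euthanasia the median runs from -0.33 to 0.27 with all libraries and from -0.11 to 0.12 without replicate 5 of the vehicle.

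With all libraries in the fit, the differences at the first time had almost no relation across regions to those at the second. The direction was the same at both times in 48.7% of the 15740 regions, and across regions the log2 differences had a Pearson r of -0.03 and a Spearman rho of -0.05, given as a description, since regions share libraries and are not replicates. Of the 327 regions higher after DEN at partial hepatectomy with p under 0.05, 56.3% were higher at terminal euthanasia too, beside 60.8% of all regions. Of the 170 lower ones, 50.6% were lower at the second time, beside 39.2% of all regions. Their median log2 difference was 0.65 or -0.60 at the time that chose them and 0.06 or -0.01 at the other. The test of the change in the difference between the times called 0 of 15740 regions (0.0%; smallest adjusted p 0.28), and 997 (6.33%) had an unadjusted p under 0.05. In 494 of these (3.14%) the difference was higher at the second time and in 503 (3.2%) lower.

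Unadjusted p was under 0.05 at both times, in the same direction, in 22 regions (0.14% of those tested), 14 higher and 8 lower after DEN. In 15 other regions (0.0953%) the p was under 0.05 at both times and the directions were opposite. The 22 were 4.43% of the regions below this p at the first time and 1.63% of those at the second. Of all regions tested, 5.59% were higher and 2.92% lower at this p at the second time, and 2.09% and 1.08% at the first. Both shares of the 22 lie between those of all regions at the other time. With all libraries the count of 22 is therefore no excess over that background, and at p under 0.01 there was 1 region of each kind. With replicates 1 to 4 alone, 28 of 15651 regions had the same direction and 5 opposite ones. These 28 were 5.83% of the 480 regions below p 0.05 at the first time and 5.63% of the 497 at the second. The count beside its background thus depended on replicate 5, and the reason was not tested. The members of the 22 are described without being read as shared effects. The 22 regions lay on 12 named chromosomes and, for 2 of them, on unplaced sequence, and 11 had a mean signal above the median of 60.2. The last regions inside the limit were Tmem132e (p 0.042 and 0.036) and RGD1304595 (0.043 and 0.035), and the first outside were Gabpb1l (0.051 and 0.018) and RGD1563224 (0.032 and 0.051).

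**Figure D2:**
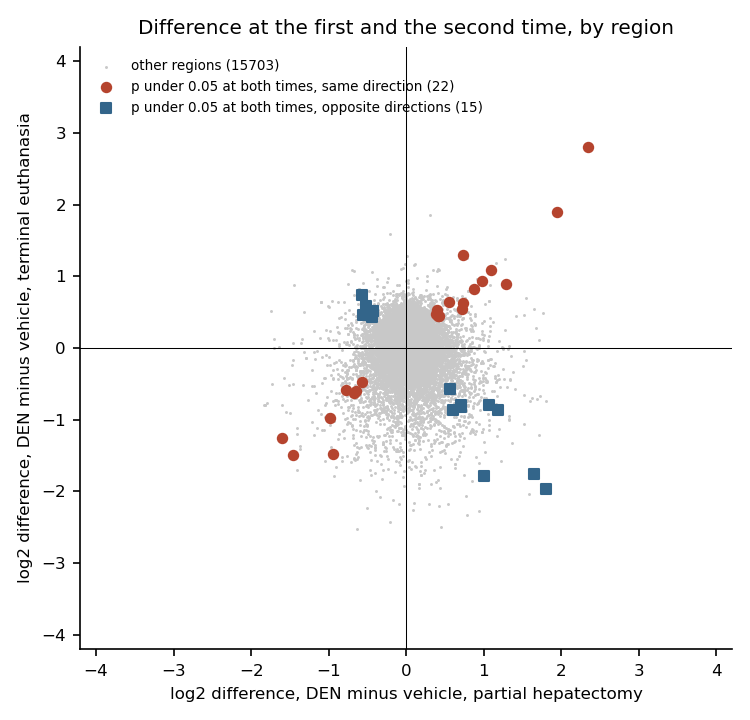
Log2 difference in signal (DEN minus vehicle) at partial hepatectomy on the horizontal axis and at terminal euthanasia on the vertical, 1 point for each of 15740 regions. Circles mark the 22 regions with unadjusted p under 0.05 and the same direction at both times, squares the 15 with opposite directions, and the cloud shows no slope (r = -0.03). The outermost circle is the second copy of LOC367515, whose position depends on the value added before the logarithm.

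Nusap1 encodes a microtubule-binding protein of the mitotic spindle. Its region (chr3:106129700-106135325) had a signal of 32, 26.1, 20.6, 32 and 32 in replicates 1 to 5 of the DEN group at partial hepatectomy and 11.6, 20, 14.8, 10.9 and 19.8 in the vehicle group. At terminal euthanasia the values were 43.8, 29.4, 34.8, 45.8 and 30.4 after DEN and 21.8, 13.1, 14.2, 38 and 20.6 after vehicle. At the first time every DEN library lay above every vehicle library, and at the second 1 vehicle library, replicate 4, lay among the DEN values. The log2 difference was 0.87 (SE 0.32) at the first time and 0.82 (SE 0.31) at the second, with unadjusted limma p of 0.0081 and 0.011, and 0.85 for the mean of the times (adjusted p 0.94). Of the 22 regions, Nusap1 alone kept p under 0.05 at both times in each of the 10 fits that left out 1 replicate number.

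Fam111a, which encodes a protease linked to replication, had the highest signal of the 22 regions (chr1:215576910-215582535). Its DEN libraries had 306, 682, 228, 613 and 469 at partial hepatectomy and 314, 773, 309, 678 and 571 at terminal euthanasia. Its vehicle libraries had 27.4, 319, 89, 30.5 and 651 and then 37.7, 321, 91.2, 38 and 926. The vehicle libraries lay far apart, with replicate 5 among the highest of all and replicates 1 and 4 lowest, and each replicate number kept its level from one time to the other. The groups overlapped at both times. On the log2 scale the difference was 1.94 (SE 0.69) and 1.89 (SE 0.74), and the unadjusted limma p 0.007 and 0.013. With the 2 groups fitted alone the region passed at terminal euthanasia (1.89, limma adjusted p = 0.031), and over all settings run its adjusted p at that time lay between 0.031 and 0.999. Without vehicle replicate 1 or 4 its p was not under 0.05 at both times.

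Rbm39, a splicing factor gene, showed the same kind of spread in the other direction (chr3:146586525-146592150). DEN libraries had 8.73, 119.5, 65.1, 9.41 and 12 at partial hepatectomy and 11.5, 107, 50.1, 8.98 and 25 at terminal euthanasia. Vehicle libraries had 129.5, 77.8, 15.9, 152 and 101 and 76.3, 82, 22.3, 152 and 58.4. Replicates 2 and 3 of the DEN group were high and replicate 3 of the vehicle low at both times, so the groups overlapped although the means differed by -1.60 and -1.25 on the log2 scale (unadjusted limma p 0.0072 and 0.021). Without DEN replicate 1 or 4, or vehicle replicate 4, its p was not under 0.05 at both times. LOC500118, an uncharacterized gene that RefSeq names Fam221a (chr4:77480994-77486619), had 51.4, 91.2, 134, 71.5 and 124 and then 35.4, 87, 142, 102 and 201 after DEN. After vehicle it had 25.3, 20, 53, 105 and 20.7 and then 28.8, 42.8, 85.2, 95.7 and 38.9. Replicates 3 and 4 of the vehicle lay within the range of the DEN values at the first time, and replicates 2 to 5 at the second. Replicates 1, 2 and 4 of the DEN group lay below vehicle replicate 4 at the first time, and replicates 1 and 2 at the second. Its log2 difference was 1.29 (SE 0.36) and 0.89 (SE 0.32) (unadjusted limma p 0.00069 and 0.0071), and it stayed below 0.05 at both times in 9 of the 10 fits without 1 replicate number, the exception being DEN replicate 5.

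**Figure D3:**
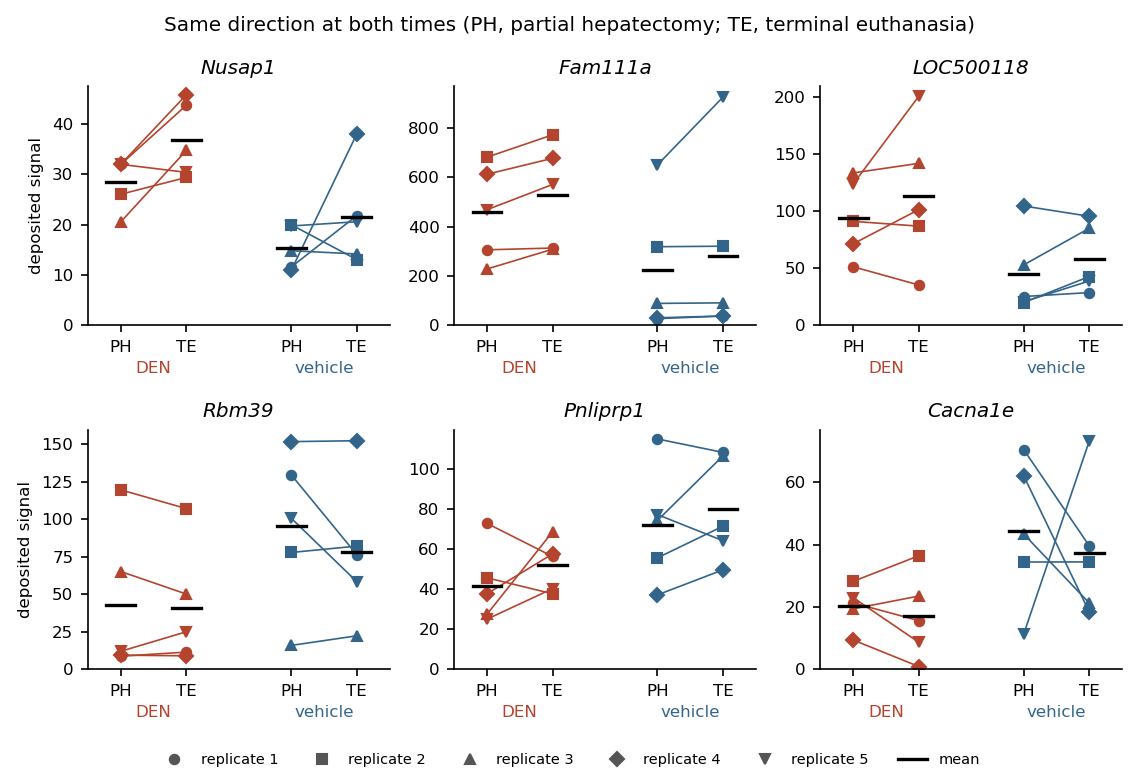
Deposited signal in each library for 6 of the 22 regions with the same direction at both times, at partial hepatectomy (PH) and terminal euthanasia (TE). Lines join libraries with one replicate number and black bars are means of 5; for Fam111a and Rbm39 the lines stay at their own level, while for Cacna1e they cross.

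The same-numbered libraries of the 2 times were compared in all regions, since the labels do not say whether they share an animal. In Rbm39 the median distance between same-numbered libraries of a group was 0.36 on the log2 scale and that between differently numbered ones 1.39. In Fam111a the distances were 0.23 and 1.21, and in LOC500118 0.51 and 0.95. Same-numbered libraries were the closer ones in 17 of the 22 regions (77.3%, counting the second copy of LOC367515, which has no read in most libraries and can hardly show this), in 10 of the 15 with opposite directions (66.7%) and in 54.8% of all regions. In Nusap1, Cacna1e, Gbx2, Noxo1 and RGD1304595 they were not. The library with the highest signal of its group kept its number in 19 of 44 cases (2 groups in 22 regions, 43.2%), against 24.6% over all regions. If libraries with one number are from one animal, the 2 times are not separate samples of the groups.

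Dmgdh, dimethylglycine dehydrogenase, whose region overlaps that of Bhmt2, had 97.9, 139, 102, 93.2 and 121 after DEN and 85.3, 75.6, 72.1, 94.9 and 86.5 after vehicle at partial hepatectomy. At terminal euthanasia it had 70.8, 67, 117, 112 and 104 after DEN and 78.3, 80.8, 79.1, 56.5 and 35.5 after vehicle. Only replicate 4 of the DEN group lay below the highest vehicle library at the first time, and at the second replicates 1 and 2 did. The log2 difference was 0.40 and 0.53 (unadjusted limma p 0.03 and 0.017). From here on, a gene said to lie at a pair of values has these log2 differences (DEN minus vehicle) at partial hepatectomy and at terminal euthanasia. Gpsm2, which helps orient the mitotic spindle, lay at 0.40 and 0.44, and Eml4, a microtubule-associated protein gene, at 0.38 and 0.47. Both are small differences: Eml4 had 138 ± 20.4 and 105 ± 15.9 at the first time (SD, n = 5). Gpsm2 was among the least stable, with p under 0.05 at both times in 2 of 10 fits without 1 replicate number.

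Dpp3, a cytosolic dipeptidyl peptidase gene, had 65, 53.2, 67.4, 43.3 and 27 after DEN at partial hepatectomy and 52.7, 22.2, 18, 26.2 and 36.7 after vehicle. The later values were 52.1, 69.4, 72.6, 65.6 and 60.8 after DEN and 37.7, 29.7, 10.1, 26.5 and 33.2 after vehicle. The groups overlapped at the first time and did not at the second, where the lowest DEN library stood at 52.1 and the highest vehicle library at 37.7. On the log2 scale the difference was 0.73 (SE 0.33) and 1.30 (SE 0.34), with unadjusted limma p of 0.032 and 0.00032. The tables place this region on chromosome 3 and RefSeq places Dpp3 on chromosome 1 of GRCr8, so the gene named for this region is uncertain. The other 17 of the 18 genes matched in the promoter table were on the same chromosome in both, but Eml4 and Klhdc3 were on opposite strands.

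Stac3, a gene of skeletal muscle excitation-contraction coupling, lay at 0.74 and 0.63, with 97 ± 48.7 after DEN and 60.4 ± 21.3 after vehicle at the second time. Noxo1, the NADPH oxidase organizer, whose region overlaps those of Gfer and Syngr3, lay at 0.55 and 0.65. Klhdc3, a kelch domain gene whose region overlaps that of Mea1, lay at 0.42 and 0.44. These 3 had p under 0.05 at both times in 3 or 4 of 10 fits without 1 replicate number. RT1-M3-1, a class Ib histocompatibility gene, had 50.4, 53.2, 53.7, 63.1 and 51 after DEN at partial hepatectomy and 20.01, 32.2, 41.3, 36 and 37.6 after vehicle, with no overlap. At terminal euthanasia it had 54.2, 56.5, 75.7, 59.3 and 102 after DEN and 53.5, 38, 46.6, 57.6 and 36.6 after vehicle, where replicate 4 of the vehicle lay among the DEN values. Its log2 difference was 0.72 (SE 0.24) and 0.55 (SE 0.23). It belongs to a family of similar genes, as does the olfactory receptor gene Olr1266 (1.10 and 1.09), and reads from relatives could be counted in either.

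The uncharacterized LOC367515 is listed at 2 places on unplaced sequence, and both were among the regions higher after DEN. The first copy lay at 0.98 and 0.94. The second had no read in any of the 10 vehicle libraries, while the DEN libraries had 2.91, 6.52, 10.3, 9.41 and no read at partial hepatectomy and 14.6, 9.41, 8.18, 10.8 and no read at terminal euthanasia. Replicate 5 of the DEN group also had no read there at either time. The copies may share reads, the values are those of a few reads, and no fold is given.

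Among the 8 regions lower after DEN, that of Cacna1e, a subunit of the R-type calcium channel (chr13:69682818-69688443), had 21.3, 28.2, 19.4, 9.41 and 23 after DEN at partial hepatectomy and 70.6, 34.5, 43.5, 62.2 and 11.3 after vehicle. The later values were 15.6, 36.5, 23.5, 0.898 and 8.69 after DEN and 39.7, 34.5, 21.3, 18.4 and 73.2 after vehicle. Vehicle replicate 5 was the lowest of its group at the first time and the highest at the second, and the groups overlapped at both. The log2 difference was -0.94 (SE 0.37) and -1.47 (SE 0.45), and the mean of the times gave the smallest unadjusted limma p of all regions, 0.00025 (adjusted p 0.94). Without DEN replicate 4, or vehicle replicate 1 or 4, its p was not under 0.05 at both times. Kcnj12, an inward rectifier potassium channel gene, had 47.5, 45.6, 58.3, 17.9 and 44 after DEN and 119, 53.3, 54, 45.8 and 63 after vehicle at the first time. At the second it had 24, 43.5, 41.9, 30.6 and 48.9 after DEN and 46.6, 40.4, 60.8, 57.6 and 81.2 after vehicle. The groups overlapped at both times, with vehicle replicate 1 far above the rest at the first, and the differences were -0.65 and -0.59.

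Gbx2, a homeobox gene of brain patterning, had 1.94, 11.9, 10.3, 3.77 and no read after DEN at partial hepatectomy and 10.5, 25.6, 23.3, 3.27 and 9.40 after vehicle. At terminal euthanasia it had 4.17, 7.06, 20.4, 14.4 and 13 after DEN and 64.4, 13.1, 10.1, 33.4 and 95 after vehicle, where vehicle replicate 5, the library that stood apart, was the highest. On the log2 scale the difference was -1.47 (SE 0.66) and -1.49 (SE 0.55). Its region was in the class of lowest signal, whose median was -0.33 at that time, and p was under 0.05 at both times in 5 of the 10 fits without 1 replicate number, those without DEN replicate 2, 3 or 4 or vehicle replicate 1 or 4. Of the printed and counted RefSeq promoters of the 18 matched genes, that of Gbx2 had the most CG, 44, and that of Olr1266 had 0, with a median of 10.5.

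Pnliprp1, a gene related to pancreatic lipase, had 72.7, 45.6, 27.4, 37.6 and 25 after DEN at partial hepatectomy and 115, 55.6, 74.2, 37.1 and 77.1 after vehicle. The later values were 56.2, 37.6, 68.5, 57.5 and 40.2 after DEN and 108, 71.3, 106, 49.6 and 64.1 after vehicle. Vehicle replicates 2 and 4 lay within the range of the DEN values at the first time, and replicates 4 and 5 at the second. The differences were -0.78 (SE 0.27) and -0.58 (SE 0.26). Ano1, a calcium-activated chloride channel gene, lay at -0.57 and -0.48, with DEN replicate 5 above all vehicle libraries at the first time and most at the second (87 and 81.5). Tmem132e, a transmembrane protein gene, lay at -0.98 and -0.98, and RGD1304595, named Tmem268 in RefSeq, at -0.67 and -0.62.

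The mean of the times brought forward 3 further regions by its smallest p, none of them with p under 0.05 at both times. Plek, a platelet and leukocyte protein gene, had every DEN library higher at partial hepatectomy, with 104, 113, 116, 152 and 125 after DEN against 74.8, 82.2, 92.2, 64.3 and 80.9 after vehicle. At terminal euthanasia the groups overlapped (0.62 and 0.32). Mllt1, a transcription elongation factor gene placed on unplaced sequence, lay at 0.41 and 0.77, and Iiig9, named Saxo4 in RefSeq, at -0.61 and -1.40. Rpp25, a ribonuclease P subunit gene, had every DEN library lower at the first time (69.8, 47.8, 62.8, 22.6 and 68 after DEN against 142, 102, 99.6, 109 and 75.2 after vehicle). At the second the groups overlapped, with DEN replicate 5 the highest of all (-1.02 and -0.24).

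The separation of all 5 DEN from all 5 vehicle libraries gave another count that does not use a model. At partial hepatectomy 62 regions (0.394%) had every DEN library higher and 44 (0.28%) every DEN library lower, and at terminal euthanasia 113 (0.718%) and 70 (0.445%). A single region (0.00635%) was apart in the same direction at both times, that of Ppid, a cyclophilin and chaperone partner gene (chr2:170991419-170997044). It had 23.3, 21.7, 17.1, 16.9 and 22 after DEN and 25.3, 24.4, 23.3, 26.2 and 23.5 after vehicle at the first time. At the second it had 15.6, 16.5, 13.3, 18.9 and 20.6 after DEN and 24.8, 25, 22.3, 24.2 and 41.2 after vehicle. The gap between the groups was small at both times, and only vehicle replicate 5 at the second stood clear of the others. The log2 difference was -0.28 (SE 0.33) and -0.64 (SE 0.36) with unadjusted limma p of 0.4 and 0.076. The standard error comes from the spread in all 7 groups of a time. Ppid was named after its values were seen.

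Of the 15 regions with opposite directions, 1 was also fully separated at both times (0.00635% of those tested). RGD1311188, a zinc finger gene named Zfp707 in RefSeq, had 15.5, 15.2, 27.4, 12.2 and 17 after DEN and 7.37, 6.67, 8.48, 12 and 4.70 after vehicle at partial hepatectomy. At terminal euthanasia it had 10.4, 15.3, 8.18, 16.2 and 15.2 after DEN and 18.8, 22.6, 26.4, 27.7 and 19.4 after vehicle. All 5 DEN libraries were higher at the first time and all 5 lower at the second, and the level of the vehicle group moved more between the times than that of the DEN group. On the log2 scale the difference was 1.07 (SE 0.41) and then -0.80 (SE 0.38), and the test of the change between the times gave an unadjusted limma p of 0.0014 (adjusted p 0.74).

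Ube2cbp, named Ube3d in RefSeq and related to ubiquitin transfer, had 19.4, 36.9, 22.9, 32.9 and 24 after DEN at partial hepatectomy and 27.4, 27.8, 6.36, 13.1 and 4.70 after vehicle. The later values were 5.21, 3.53, 19.4, 10.8 and 3.26 after DEN and 26.8, 20.2, 31.4, 15 and 45.8 after vehicle. DEN libraries were mostly higher at the first time and, but for replicate 3, lower at the second. The change of the difference was -2.79 (SE 0.56), with limma adjusted p of 0.28, and it passed without DEN replicate 3 (-3.19, limma adjusted p = 0.043). Over all settings run the adjusted p lay between 0.043 and 1. Fgf5, a fibroblast growth factor gene, had 47.5, 61.9, 53.7, 49.9 and 72 after DEN and 24.2, 44.5, 51.9, 41.5 and 29.1 after vehicle at the first time. At the second it had 26, 43.5, 29.6, 31.4 and 42.4 after DEN and 51.5, 70.1, 52.7, 56.5 and 90.4 after vehicle, where all DEN libraries were lower. The difference was 0.60 and then -0.87.

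Rnase6, an antimicrobial ribonuclease gene, went the other way. It had 110.5, 86.9, 88, 78.1 and 95 after DEN and 113, 114, 216, 136 and 118 after vehicle at partial hepatectomy, with no overlap. At terminal euthanasia it had 116, 130.5, 137, 138 and 125 after DEN and 114, 88, 98.3, 122 and 59.5 after vehicle, with overlap. The difference was -0.56 and then 0.46. Among the other regions of this kind, Trim32, a ubiquitin ligase gene (1.65 and -1.75), Fam108c1, RGD1359108, Mpzl3 and Hdmcp were higher and then lower. Vsig8, the olfactory receptor genes Olr107 and Olr1311, Mab21l1 and Lactb, were lower and then higher, with log2 differences between -0.57 and 0.74. With replicates 1 to 4 alone 5 regions had opposite directions and 28 the same, and without vehicle replicate 5 there were 8 and 17.

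**Figure D4:**
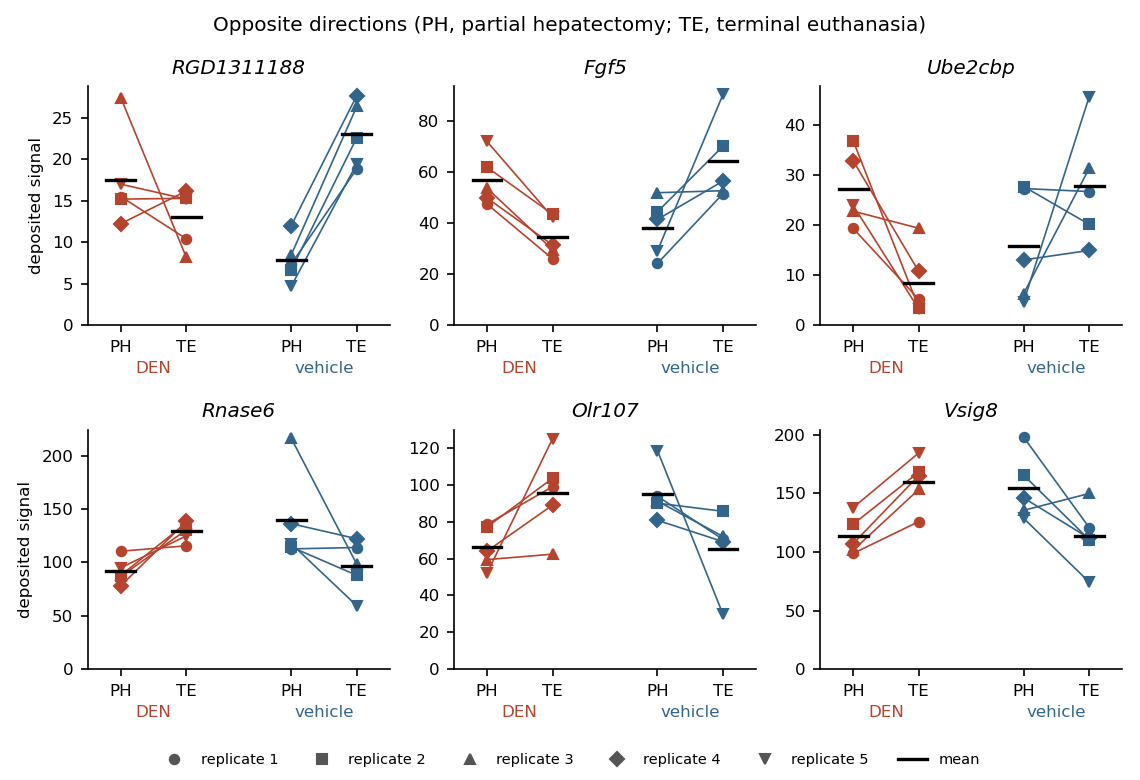
Deposited signal in each library for 6 of the 15 regions with opposite directions at the 2 times, drawn as partial hepatectomy (PH) and terminal euthanasia (TE) with lines joining one replicate number and black bars for means of 5. In RGD1311188 the DEN libraries are all above the vehicle libraries at PH and all below them at TE.

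The 22 regions kept their direction at both times in every alternative in which they were tested, which was all of them but for 19 regions under the stricter filter on low values and 21 with the 2 groups fitted alone. They were chosen by their p in these same libraries, most of which each alternative reuses. A kept direction largely follows from that choice and is no separate support. How many kept p under 0.05 at both times depended on the setting: 12 after quantile normalization, 11 with replicates 1 to 4 alone, 19 after trimmed-mean scaling of the reads and 10 to 14 when 1 replicate number was left out. The count of such regions in each setting lay between 17 and 35, while that of opposite directions lay between 5 and 21. In the authors' deposited table, p was under 0.05 at partial hepatectomy in 542 of the regions tested here and at terminal euthanasia in 701. Both were so in 30 regions, 13 of them higher at both times and 6 lower, and of these 19 the authors' deposited table shares 3 with the 22.

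**Figure D5:**
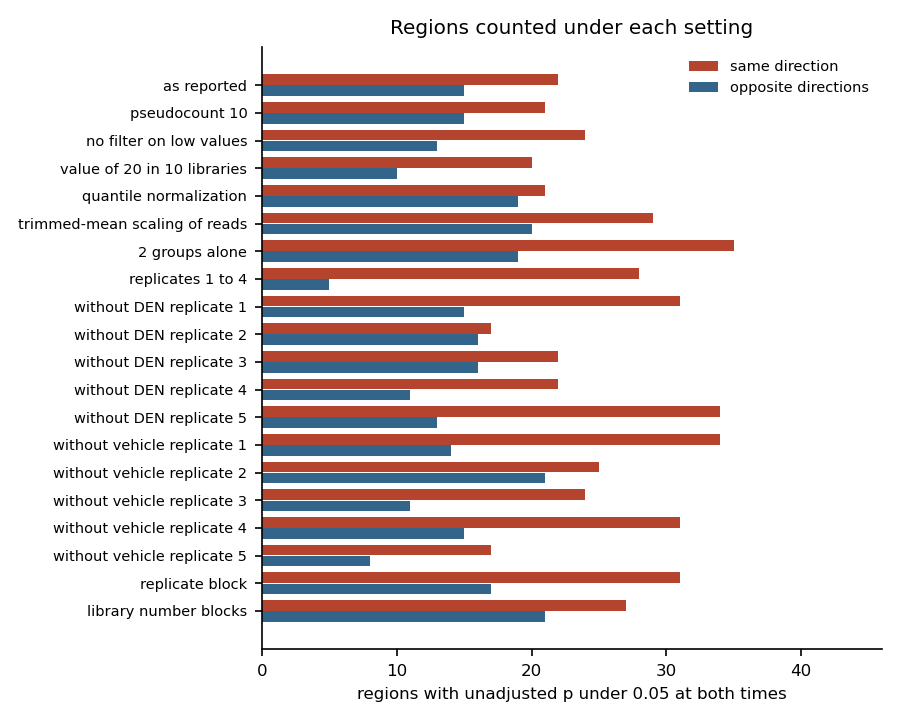
Number of regions with unadjusted limma p under 0.05 at both times, in the same direction and in opposite directions, for the values as reported and 19 alternative settings. The same direction gives 17 to 35 regions and opposite directions 5 to 21.

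The higher dose of DEN, 30 mg/kg given for 1 week, was set against the same vehicle libraries, so its differences share them and are only given side by side. For Nusap1 they were 0.94 at partial hepatectomy and 0.32 at terminal euthanasia, and for LOC500118 1.40 and 0.67. For Fam111a they were 0.83 and 0.42, for Rbm39 -0.79 and -0.23, and for Cacna1e -0.52 and -0.24. Gbx2, Tmem132e and RGD1304595, lower after the low dose at both times, had 0.64 and -1.06, 0.19 and -0.81, and 0.26 and -0.17. Dpp3 had 0.05 and 0.32. Among the regions with opposite directions, Trim32 had 1.71 and -1.13, and RGD1311188 1.18 and -0.15. At 30 mg/kg, replicates 3 and 4 at partial hepatectomy and 3 at terminal euthanasia had no read in 0.856%, 0.879% and 0.914% of regions. Their 10th percentile of signal was 11.5, 12 and 11.7, beside 14.9 in the vehicle library that stood apart. Replicates 1, 2 and 5 at the first time and 5 at the second shared a scaling total with another library. Gbx2, Tmem132e, RGD1304595, Trim32 and RGD1311188 are in the class of lowest signal, and the part of these libraries was not tested.

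In gene lists that fit a DNA-alkylating liver carcinogen and a promoter of drug metabolism, 0 members passed the adjusted test. Over all 15177 genes, counting a gene where any of its regions was, 321 were higher and 165 lower at unadjusted p under 0.05 at the first time, and 881 and 440 at the second. Of 33 genes of alkylation and DNA repair, 0 were below this p at partial hepatectomy, and 3 higher and 2 lower were at terminal euthanasia. Alkbh2, which reverses alkylated bases and whose region overlaps that of the uracil glycosylase gene Ung, had 141 ± 24.4 and 139 ± 29.8 at the first time (SD, n = 5) and 158 ± 29.5 and 93.4 ± 19.8 at the second (0.04 and 0.75). Polb, the base excision repair polymerase, lay at 0.07 and -0.48, and Mgmt, which removes alkyl groups from guanine, at 0.16 and -0.05.

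Of 24 genes of DNA damage signalling, 1 was lower and 0 higher at p under 0.05 at partial hepatectomy, and 3 were higher and 3 lower at terminal euthanasia. Cdkn1a, a kinase inhibitor that arrests the cell cycle, had 52.4, 31.5, 49.1, 37.6 and 64 after DEN and 46.3, 74.5, 58.3, 49.1 and 69.6 after vehicle at the first time. At the second it had 15.6, 42.3, 34.8, 59.3 and 67.3 after DEN and 65.4, 72.5, 47.6, 89.9 and 62.9 after vehicle. The groups overlapped at both times, and the differences were -0.36 (SE 0.24) and -0.74 (SE 0.28), with an unadjusted limma p of 0.0036 for the mean of the times (adjusted p 0.94). Chek1, a checkpoint kinase gene, lay at -1.15 and -0.05, and Fas at 0.19 and 0.33.

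Of 25 genes of the phenobarbital response and drug metabolism, 2 were higher and 0 lower at the first time, and 1 was higher at the second. Nr1i3, the gene of CAR, had 101 ± 16 and 72.4 ± 24.7 at the first time and 97.7 ± 27 and 81.2 ± 9.95 at the second (0.53 and 0.22). Its partner Rxra lay at 0.42 and 0.31, Gstm2 at -0.59 and -0.58, and Cyp2e1, the enzyme that activates DEN, at -0.37 and 0.46. Of 18 markers of preneoplastic foci, 1 was higher at the first time, and 1 was higher and 1 lower at the second. Txnrd1, a thioredoxin reductase gene, had 112, 132, 96, 114 and 131 after DEN and 87.4, 85.6, 75.2, 87.2 and 93.1 after vehicle at partial hepatectomy, with no overlap. At terminal euthanasia the groups overlapped, and the differences were 0.44 and 0.39. Gstp1 lay at -0.56 and 0.00, Afp at 0.20 and 0.42, and Slc7a11 at 0.14 and 0.37.

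In 3 genes of glycogen metabolism the groups did not overlap at one of the times, as was so with DEN lower at partial hepatectomy in 0.28% of all regions and with DEN higher at terminal euthanasia in 0.718%. Ppp1r3c, a glycogen-targeting phosphatase subunit, had every DEN library lower at partial hepatectomy and no separation later (-0.69 and -0.08). Pygm (-0.17 and 0.79) and Phkg1 (-0.11 and 0.58), of glycogen breakdown, had every DEN library higher at terminal euthanasia and slightly lower means at the first time. In the list of 24, 1 lower member was below p 0.05 at the first time, and 3 higher and 1 lower were at the second. Among 38 tumour suppressors 2 were higher at the first time and 4 lower at the second. Stk11 lay at 0.46 and 0.45, and Wif1 at -0.25 and -0.81. Among 29 proto-oncogenes it was 1 higher and 1 lower, then 0 higher and 2 lower, where Araf lay at 1.07 and 0.66 and Met at 0.24 and 0.21.

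Of 16 genes of the methylation machinery, 1 was higher at the first time, and 1 was higher and 1 lower at the second. Hells, a helicase needed for DNA methylation, had 63.8 ± 10.2 and 44 ± 14.7 at the first time and 60.8 ± 5.92 and 46.6 ± 7.32 at the second (0.57 and 0.38). Tdg lay at -0.12 and -0.70, and Mbd3 at 0.16 and 0.38. Of 27 interferon response genes, 1 was higher at the first time and 2 lower at the second. Ddx58, the RNA sensor RIG-I, lay at 0.58 and 0.45. Ifi44 lay at -0.09 and -1.59, and it passed at terminal euthanasia without DEN replicate 5 (-2.08, limma adjusted p = 0.010) and with replicates 1 to 4 alone (-2.03, adjusted p 0.045), while over all settings its adjusted p lay between 0.010 and 0.999. Of 31 cell cycle genes, 1 was lower at the first time (Plk1, -0.46, then -0.16) and 0 were below p 0.05 at the second.

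Of 29 imprinted genes 0 were below p 0.05 at the first time, and 3 higher and 1 lower were at the second. H19 had 514 ± 108 and 526 ± 112, then 580.3 ± 97.5 and 478 ± 117, and the 3 overlapping regions of Igf2 lay between 0.15 and 0.75 and then between -1.01 and -0.58. The median of the list at terminal euthanasia was 0.22, and it was -0.02 after quantile normalization. Of 100 developmental homeobox and related genes, 1 was higher and 6 lower at the first time, and 0 higher and 11 lower at the second. Their median log2 difference was -0.04 and then -0.21, against 0.02 and 0.09 over all genes. Of these genes 58 lay in the class of lowest signal, where the median over regions was -0.33 at the second time. With replicates 1 to 4 alone the list median at that time was -0.17 and that of the class of lowest signal -0.18. After quantile normalization the list median was -0.17 and that of the class -0.06. At the first time the class had a median of 0.07 in the deposited signal, beside -0.04 for the list. The part of signal level was not tested. Hoxd10 lay at -1.73 and -0.51, Hoxd13 at -0.93 and -1.78, Irx3 at -0.97 and -0.60 and Pax9 at 0.84 and -1.85. In each of them vehicle replicate 5, the library that stood apart, was the highest vehicle library at terminal euthanasia. It had 48.1, 59.5, 46.9 and 48.1 in the same order, where the next vehicle library had 17.2, 18.25, 32.3 and 19.8.

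Marker genes of liver cell types were listed because the cell makeup of the bulk samples can differ. At partial hepatectomy 0 of 9 hepatocyte, 6 biliary or progenitor, 9 macrophage, 5 endothelial and 14 lymphocyte markers were below p 0.05, and 1 of 11 stellate or fibroblast markers was, Rgs5 (-0.62, then -0.21). At terminal euthanasia 2 macrophage and 2 lymphocyte markers were, all higher after DEN, among them Marco (0.45) and Cd4 (0.45), and for Cd4 every DEN library was higher. The median of the lymphocyte list was 0.29 at that time, 0.10 with replicates 1 to 4 alone and 0.15 after quantile normalization. In the same order, that of the macrophage list was 0.22, 0.06 and 0.10, and that of the 5 endothelial markers 0.29, 0.03 and 0.01. The 11 stellate or fibroblast markers, 3 of them higher, had a median of -0.14 at that time, -0.24 with replicates 1 to 4 and -0.19 after quantile normalization. The lymphocyte, macrophage and endothelial lists have 1 of 28 genes in the class of lowest signal. Their median signals were 117, 103 and 173. The first 2 lie in the third class, whose median at terminal euthanasia was 0.14, and the endothelial one in the highest, with 0.27. After quantile normalization each of these classes had a median of 0.02. The part of signal level or of cell makeup in these results was not tested.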

How the data were processed

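Methylated DNA in 20 rat liver samples from a series of 70 libraries was compared, 5 libraries of low-dose DEN and 5 of vehicle at each of 2 times. The deposited signal is a read total per region, divided by a total of the library and scaled to 50 M by the authors, as the values show; a region without a read holds 0.01. The authors also deposited a p-value per region, from a t-test per the file headers, which is used only where named. Aligner and genome build are not stated in the sources used here.

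Groups came from the sample labels. The signal was analysed as log2(signal + 1), after keeping regions with a value of 10 or more in at least 5 libraries, with limma 3.58.1 (R 4.3.3, trended prior, Benjamini-Hochberg adjustment, threshold 0.05). One mean per group was fitted over the 35 libraries of a time. The mean and the difference of the times used 1 value per replicate number. Log2 differences are therefore on the log2(signal + 1) scale and understate the change of low regions. The fit was tested on simulated data. Nothing in the labels says that libraries of a group are from separate animals beyond 5 livers per group, so a p-value measures the spread between these libraries.

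Alternatives were another pseudocount (10), no filter, a filter of 20 in 10 libraries, quantile normalization, trimmed-mean scaling of the reads, the 2 groups alone, replicates 1 to 4, each replicate number left out, a replicate block and blocks of library numbers. Replicate numbers were checked for pairing. Between the groups, the correlation of same-numbered deviations ran from -0.01 to 0.10, so the numbers were not used as pairs of DEN and vehicle. Between the times it ran from 0.01 to 0.10 for DEN, 0.02 to 0.29 for vehicle and -0.36 to 0.65 over all 7 groups. For numbers 3 and 5 of DEN and 2 and 4 of vehicle, a differently numbered pair had a higher correlation. The value per number in the fits of the mean and the difference of the times rests on this weak pairing. Planned count-model tests were not run, although every value above 0.01 was a whole multiple of the value of 1 read.

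Named regions are those with unadjusted p under 0.05 at both times in the same or opposite directions, the 4 smallest p per direction for the mean of the times, up to 3 members per gene list, and fixed genes; a few of these are not reported here. Members and lists were chosen with earlier results of these data known. Promoter sequences are from RefSeq (GRCr8) and matched 18 of the 22 agreeing genes by symbol. Figures were drawn with matplotlib 3.10.9 in Python 3.11.15.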

Additional observations from a re-analysis of the deposited data

Results flagged for a closer look

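In 7 of 120 groups of 5 libraries checked (5.83%), 1 library stood apart from the other 4 by more than Dixon's limit of 0.71 of the range of the group, where chance gives about 1 in 20. Vehicle replicate 2 at terminal euthanasia had a signal of 23.8 for Noxo1, below the next value of 50.7. Vehicle replicate 3 had 135 for Gpsm2 at that time, above 90.2, and vehicle replicate 5 had 41.2 for Ppid, above 25. At partial hepatectomy vehicle replicate 4 had 77.4 for Stac3, above 42.1, and vehicle replicate 1 had 119 for Kcnj12, above 63. In the DEN group replicate 2 had 182 for Stac3 at terminal euthanasia, above 89.1, and replicate 4 had 63.1 for RT1-M3-1 at partial hepatectomy, above 53.7. The 7 were in 7 different libraries.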

How the results depend on the processing

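No setting called a region at partial hepatectomy or for the mean of the times. At terminal euthanasia 1 region was called with the 2 groups alone, 1 with replicates 1 to 4, and 0 to 1 when a replicate number was left out. For the change between the times that range was 0 to 1. Regions with unadjusted p under 0.05 and the same direction at both times numbered 35 with the 2 groups alone, 1 at p under 0.01, and 17 to 34 with a number left out. Opposite directions numbered 5 with replicates 1 to 4, 1 at p under 0.01, and 8 to 21 with a number left out. Unadjusted p was under 0.05 in 1158 regions for the mean without vehicle replicate 1, and for the change between the times in 520 with replicates 1 to 4 and 590 without vehicle replicate 5. The imprinted list had a median of -0.0213 after quantile normalization at terminal euthanasia, and the endothelial list 0.011, or 0.0343 with replicates 1 to 4.

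The mean of the times turned direction for 5 of the regions named, none below p 0.05. Cyp2e1 had -0.00441 with trimmed-mean scaling, -0.0586 with replicates 1 to 4 and -0.0204 to 0.0751 with a number left out. The Igf2 regions had -0.43 to 0.22 and -0.33 to 0.10 with a number left out. H19 had -0.0325 after quantile normalization. Mgmt had -0.00364 with a pseudocount of 10, -0.0114 with library number blocks and -0.16 to 0.24 with a number left out. The cause was not tested.

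A replicate block, for numbers that share no stated animal, called 0 regions and gave 31 regions of the same and 17 of opposite direction. The planned count tests were not run. The depth was a median of 42 to 59 reads per region with 5 libraries per group, and the median standard error of a log2 difference was 0.23 and 0.24 at the 2 times.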

Other observations

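Some regions outside the comparison kept a level by replicate number from one time to the other. Among regions with a mean signal above the median, the largest excess of the distance between differently numbered libraries over that between same-numbered ones was in Rbm39 and Fam111a, described above, and then in Arf6, a small GTPase gene of membrane traffic, with distances of 1.35 and 0.53 on the log2 scale. The regions of RT1-N1 and RT1-N2, class Ib histocompatibility genes listed at one place, had 1.08 and 0.36, Srp72, of the signal recognition particle, 0.82 and 0.28, Klkb1, plasma kallikrein, 0.76 and 0.28, and Xpc, a nucleotide excision repair gene, 0.62 and 0.15. Their unadjusted limma p for DEN against vehicle lay between 0.065 and 0.96. An excess of 1 or more was present in 14 of all 15740 regions (0.0890%). These regions were chosen after their values were seen, and whether the levels belong to animals was not tested.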
